A study of Mus musculus with 6 samples.

Results

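NF-κB is a family of dimeric transcription factors that carry signals from the T cell receptor and from receptors of the TNF family to the nucleus. The 5 subunits are encoded by *Nfkb1*, *Nfkb2*, *Rel*, *Rela* and *Relb*. In resting cells, inhibitors of the IκB family hold the dimers in the cytoplasm. On activation the IκB proteins are phosphorylated, ubiquitinated and degraded by the proteasome. The precursor proteins made from *Nfkb1* and *Nfkb2* are cut to their mature forms by the same protease. Several genes of the inhibitors are themselves NF-κB targets, so that the pathway limits its own activity. The RNA levels of 10 such genes were examined in CD8 T cells in which 1 catalytic subunit of the proteasome had been exchanged. They comprised the 5 subunits, the 3 IκB genes *Nfkbia*, *Nfkbib* and *Nfkbie*, the feedback inhibitor *Tnfaip3*, whose product edits ubiquitin chains, and *Bcl3*, an IκB-like cofactor of nuclear NF-κB dimers. They were chosen by symbol among the 78275 genes of the deposited table, no measured value being used by the rule, and all 10 were among the 16105 genes with enough counts to be tested.

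CD8 T cells (CD4-CD8+ and TCRβ high) were sorted from lymph nodes, and RNA was sequenced, for 3 WT and 3 BIT mice, at 9 to 10 weeks of age, on the C57BL/6 background, with 1 library per mouse. BIT mice are homozygous for an allele in which the sequence of *Psmb11*, encoding the thymoproteasome subunit β5t, was placed in *Psmb8*, which encodes the immunoproteasome subunit β5i. The allele is present in every cell and not only in T cells. The study made several BIT lines and used mostly 1 of them, and the labels do not name the line of these mice. The libraries held between 37467678 and 52922675 estimated counts. *Psmb8* had between 8024 and 10790 counts in WT mice and between 59 and 73 in BIT mice, and *Psmb11* had 0 counts in each WT library and between 1226 and 1926 in BIT mice. The labels give male mice and name the spleen beside lymph nodes in their protocol, whereas in WT replicate 3 *Xist* reached 66626 counts and 4 Y-linked genes together had 0, against 8474 to 12329 elsewhere. Along the first principal component (34.4% of variance), replicate 3 of both genotypes lay highest (54.6 for WT and 28.6 for BIT). WT replicates 1 and 2 were at -7.04 and -3.31, and BIT replicates 1 and 2 at -36.5 and -36.3. At each replicate number the WT mouse was above the BIT mouse. For the members, values are therefore also given with WT replicate 3 left out, and for replicates 1 and 2 alone.

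Because NF-κB regulates genes through κB sites, the DNA before the start of each gene is shown for the members whose windows held a match to the κB consensus and overlapped the annotated gene by at most 2 bases. The 300 bases before the start of the canonical transcript (GRCm39, Gencode M39) were searched on both strands, a match read on both strands being counted 1 time. A match was found for 5 of the 10 members and for 8.84% of the 21757 protein-coding genes with such a window. Capitals mark the matches.

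*Nfkbia*, chr12:55539433-55539732, minus strand: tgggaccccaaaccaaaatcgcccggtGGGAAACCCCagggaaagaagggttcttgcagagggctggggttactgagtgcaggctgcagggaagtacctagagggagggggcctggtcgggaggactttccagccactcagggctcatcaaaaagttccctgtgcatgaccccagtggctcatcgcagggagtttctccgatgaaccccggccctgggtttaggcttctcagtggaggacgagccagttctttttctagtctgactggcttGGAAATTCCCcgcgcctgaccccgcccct

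*Relb*, chr7:19363426-19363723, minus strand: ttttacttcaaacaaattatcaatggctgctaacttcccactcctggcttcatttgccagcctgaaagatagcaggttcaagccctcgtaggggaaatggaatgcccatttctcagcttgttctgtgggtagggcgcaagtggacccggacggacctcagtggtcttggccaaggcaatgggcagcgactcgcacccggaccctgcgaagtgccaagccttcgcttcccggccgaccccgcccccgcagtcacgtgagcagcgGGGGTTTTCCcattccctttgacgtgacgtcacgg

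*Rel*, chr11:23721265-23721564, minus strand: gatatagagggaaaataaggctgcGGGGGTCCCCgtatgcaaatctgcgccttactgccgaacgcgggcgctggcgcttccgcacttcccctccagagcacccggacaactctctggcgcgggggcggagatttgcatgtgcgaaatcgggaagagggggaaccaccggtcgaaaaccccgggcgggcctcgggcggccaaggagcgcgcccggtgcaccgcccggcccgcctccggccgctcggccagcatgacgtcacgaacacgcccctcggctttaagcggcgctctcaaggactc

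*Nfkbia* held 2 matches, GGGAAACCCC from -273 to -264 and GGAAATTCCC from -29 to -20, positions being counted back from the start of transcription. *Relb* held GGGGTTTTCC from -37 to -28 and *Rel* held GGGGGTCCCC from -276 to -267. *Nfkbie* held GGGGGATTCC from -86 to -77 and *Tnfaip3* held GGGACACCCC from -97 to -88. The *Tnfaip3* match lay inside the annotated bounds of the gene, which cover 219 of the 300 bases of its window. No match lay in these windows of *Nfkb1*, *Nfkb2*, *Rela*, *Nfkbib* or *Bcl3*, which says only that these letters are not there, and other transcripts of *Nfkbib* and *Bcl3* start further upstream. A match is a likeness of sequence and not a binding site, and binding was not measured.

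To compare the genes with one another, CPM (counts scaled by TMM-normalized library size) were divided by the annotated exon length in kb. Levels are given as mean ± SD (n = 3 mice per genotype). *Nfkbia*, which encodes IκBα, had the highest level per length, with 48.9 ± 5.11 CPM per kb in WT mice and 51.4 ± 3.81 in BIT mice. *Rela*, encoding the transactivating subunit p65, followed with 27.1 ± 2.02 and 31.2 ± 1.60. *Nfkb1* was next with 15.9 ± 1.01 and 18.2 ± 0.712, and *Nfkbib*, encoding IκBβ, was at 11.2 ± 0.176 and 11.2 ± 0.548. The ranges of *Nfkbia*, *Rela*, *Nfkb1* and *Nfkbib* over the 6 libraries did not overlap.

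*Rel*, encoding the lymphoid subunit c-Rel, *Nfkbie*, encoding IκBε, and *Nfkb2* lay close together, with means over the 6 libraries of 9.06, 8.84 and 8.05 CPM per kb, and neighbours in this order overlapped. *Tnfaip3* was at 6.43 ± 1.74 in WT mice and 6.52 ± 0.834 in BIT mice. *Relb*, with 4.30 ± 0.510 and 5.20 ± 0.360, and *Bcl3*, with 3.83 ± 0.566 and 4.81 ± 0.654, were the lowest and overlapped each other. The order depends on the length used: with the longest transcript in place of all merged exons (4802 in place of 12848 bases), *Nfkb1* in WT mice was at 42.4 CPM per kb and above *Rela* at 30.3.

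**Figure D1:**
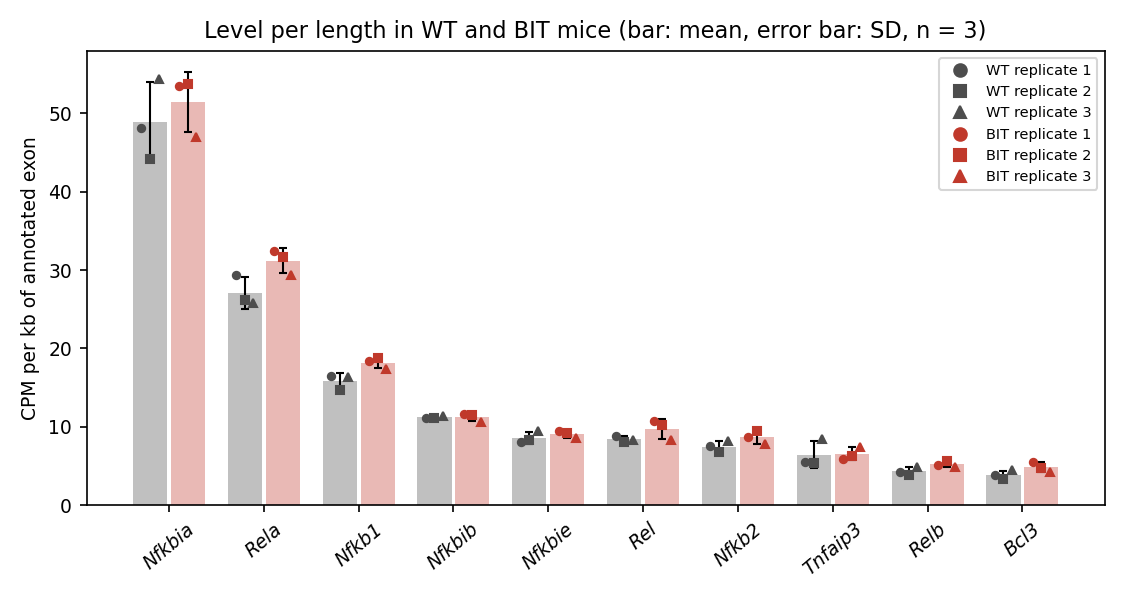
Level of each gene in CPM per kb of annotated exon (vertical axis, from 0), in the order of the WT means. Bars are means, error bars SD and points the 3 mice of each genotype, and in either genotype the means run from *Nfkbia* (48.9 in WT) down to *Bcl3* (3.83 in WT).

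Added over the 5 subunits, the level was 63.1 ± 3.56 CPM per kb (mean ± SD, n = 3) for WT and 72.9 ± 4.50 for BIT mice, the WT libraries being at 66.5, 59.4 and 63.4 and the BIT libraries at 75.3, 75.7 and 67.7. The 3 IκB genes summed to 68.7 ± 5.95 and 71.7 ± 4.77. The IκB to subunit ratio was 1.01, 1.07 and 1.19 for the 3 WT mice and 0.991, 0.982 and 0.978 for the 3 BIT mice, so that each BIT mouse was below each WT mouse. These sums and ratios are descriptions without a test. The make-up of the subunit sum was close in the genotypes: *Rela* took 42.9% ± 2.03 of it in WT and 42.8% ± 0.819 in BIT mice, *Nfkb1* 25.1% and 25.0%, *Rel* 13.3% and 13.3%, *Nfkb2* 11.8% and 11.8%, and *Relb* 6.81% and 7.13%. The size of each share depends on the merged exon length used. With the longest transcript *Nfkb1* (42.4 CPM per kb in WT mice) and not *Rela* (30.3) would be the largest part.

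No NF-κB subunit or inhibitor passed the test between BIT and WT mice. By limma-voom with quantile normalization, 0 of the 10 members passed an adjusted p of 0.01 with more than a 2-fold difference (a threshold set for this comparison), which 0.0248% of all genes tested passed, and 0 passed an adjusted p of 0.05, which 0.137% of all genes passed. The lowest adjusted p of a member was 0.559, and 0 members passed 0.05 with edgeR, with DESeq2 or in any other of the 15 alternatives. The 95% intervals of the 10 fold changes lay between 0.738-fold and 1.56-fold, inside 2-fold in either direction. Within these intervals, 8 members had a log2 fold change (log2FC) above 0, as had 52.3% of all genes, and the median of the members was 0.14, against 0.01 over all genes. With TMM normalization, edgeR or DESeq2 all 10 members were above 0. At an unadjusted p below 0.05, 2 members were higher, *Bcl3* and *Relb* (background 4.25% of all genes), and 0 were lower (background 4.32%). With edgeR 2 members and with DESeq2 3 members had an unadjusted p below 0.05, and the background is not given for these tests. In 3 members, *Nfkb1*, *Rela* and *Relb*, every BIT mouse was above every WT mouse in quantile-normalized values (background 7.38%), and in 0 members every BIT mouse was below (background 5.96%). For *Rela* this did not hold on TMM-normalized CPM. In bulk RNA, a larger share of cells with a transcript and more of it per cell cannot be told apart.

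**Figure D2:**
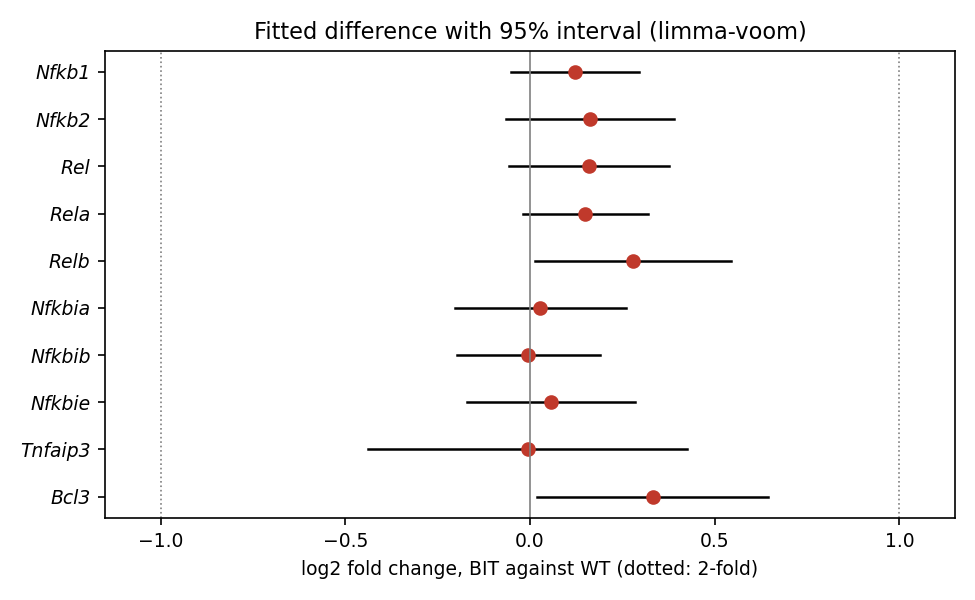
Log2FC of BIT against WT mice (horizontal axis) for the 10 genes, as points, with 95% intervals from limma-voom as lines. All intervals end inside the dotted lines at 2-fold, and those of *Relb* (0.01 to 0.54) and *Bcl3* (0.02 to 0.64) begin just above 0.

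Values per library are given as quantile-normalized log2 CPM, the scale of the fit, for WT replicates 1, 2 and 3 and then BIT replicates 1, 2 and 3. *Nfkb1*, on chromosome 3 (135290264 to 135397742, minus strand), encodes p105, the precursor of p50. It was at 7.70, 7.63 and 7.79 in WT mice and at 7.80, 7.87 and 7.81 in BIT mice. The BIT libraries all lay above the WT libraries, although BIT replicate 1 came close to WT replicate 3. The log2FC was 0.12 (standard error 0.0764, adjusted p = 0.688). With TMM normalization the log2FC was 0.20, with an adjusted p of 0.608, without WT replicate 3 it was 0.17, and in replicates 1 and 2 alone it was 0.18. *Rela*, on chromosome 19 (5687493 to 5698161, plus strand), was at 6.56, 6.47 and 6.46 in WT mice and at 6.67, 6.67 and 6.59 in BIT mice. Here too the groups did not overlap on this scale, with a log2FC of 0.15 (standard error 0.0745, adjusted p = 0.633). On TMM-normalized CPM they did, with WT replicate 1 at 96.33 and BIT replicate 3 at 96.17. Leaving out single mice gave a log2FC of 0.13 (without WT replicate 3) to 0.18, with 0.16 in replicates 1 and 2 alone.

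*Rel*, on chromosome 11 (23686847 to 23721264, minus strand), was at 6.07, 6.00 and 6.07 in WT mice and at 6.32, 6.27 and 6.02 in BIT mice. BIT replicates 1 and 2 were above all WT mice and BIT replicate 3 was between them (log2FC 0.16, standard error 0.0956, adjusted p = 0.680). The log2FC of *Rel* was 0.17 without WT replicate 3 and moved to 0.099 without BIT replicate 1, to 0.25 without BIT replicate 3 (adjusted p = 0.374) and to 0.26 in replicates 1 and 2 alone (adjusted p = 0.263).

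*Nfkb2*, on chromosome 19 (46292759 to 46303812, plus strand), encodes p100, the precursor of p52 in the non-canonical pathway. It was at 5.87, 5.78 and 6.06 in WT mice and at 6.04, 6.18 and 5.97 in BIT mice, with overlapping groups (log2FC 0.16, standard error 0.10, 95% interval -0.07 to 0.39, adjusted p = 0.688). The log2FC of *Nfkb2* moved to 0.099 when WT replicate 2 was left out and to 0.10 when BIT replicate 2 was. It moved to 0.24 with WT replicate 3 left out (adjusted p = 0.401) and to 0.29 in replicates 1 and 2 alone (adjusted p = 0.262). Its exons share 24.5% of their bases with *Psd* and 13.7% with *4833438C02Rik* on the opposite strand, with means of 9.50 and 545 counts. The library kit keeps the strand, but the strand setting of the counting is not given in the sources used here.

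*Relb*, on chromosome 7 (19339017 to 19363425, minus strand), encodes the partner of p52. It had counts of 1129, 923 and 1046 (WT) and of 1106, 1184 and 991 (BIT), or 4.42, 4.26 and 4.66 against 4.67, 4.80 and 4.67 after normalization. The groups did not overlap, although WT replicate 3 (4.66) lay close to BIT replicates 1 and 3 (both 4.67). The log2FC was 0.28 (standard error 0.117, unadjusted p = 0.0407, adjusted p = 0.559). *Bcl3*, on the same chromosome (19541553 to 19557570, minus strand), had counts of 1032, 822 and 987 (WT) and of 1221, 1034 and 881 (BIT), or 4.30, 4.10 and 4.57 against 4.81, 4.61 and 4.50. BIT replicates 1 and 2 were above all WT mice and BIT replicate 3 was below WT replicate 3. Its log2FC of 0.33 (standard error 0.138, unadjusted p = 0.0397, adjusted p = 0.559) was the highest of the 10.

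WT replicate 3 held the highest WT value of *Relb* and of *Bcl3*. Without it the log2FC values were 0.38 (adjusted p = 0.285) and 0.45 (adjusted p = 0.285), and in replicates 1 and 2 alone they were 0.40 (adjusted p = 0.199) and 0.52 (adjusted p = 0.154). Without WT replicate 2 they were 0.19 and 0.22, with an adjusted p of 0.974 for either gene. The number of members with an unadjusted p below 0.05 fell from 2 to 0 without WT replicate 1, WT replicate 2, BIT replicate 1 or BIT replicate 2, the background not being given for these fits. Of these, WT replicate 2 lowered both log2FC values most: without WT replicate 1 they were 0.27 for *Relb* and 0.32 for *Bcl3*, without BIT replicate 1 they were 0.30 and 0.24, and without BIT replicate 2 they were 0.24 and 0.35.

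*Relb* and *Bcl3* are separated by 178127 bases. Of the 10 protein-coding genes between them 3 were tested, and these are named after their values were seen. *Clptm1* had a log2FC of 0.10 (unadjusted p = 0.242), *Tomm40* of 0.04 (unadjusted p = 0.647) and *Apoe* of -0.68 (unadjusted p = 0.0416, adjusted p = 0.562).

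The 3 IκB genes had log2FC values between -0.0040 and 0.06. *Nfkbia*, on chromosome 12 (55535332 to 55539432, minus strand), encodes the IκB protein that is degraded soon after activation and remade through NF-κB. It had counts of 4864, 4080 and 4486 (WT) and of 4388, 4344 and 3646 (BIT). After normalization it was at 6.51, 6.47 and 6.78 against 6.64, 6.68 and 6.52, with all BIT mice inside the WT range. The log2FC of *Nfkbia* was 0.03 (standard error 0.102, adjusted p = 0.955), and on this scale the 95% interval ran from -0.20 to 0.26. It changed sign without WT replicate 1 (-0.01), WT replicate 2 (-0.03) or BIT replicate 2 (-0.0063), and was 0.13 without WT replicate 3, 0.07 without BIT replicate 3 and 0.17 in replicates 1 and 2 alone.

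*Nfkbib*, on chromosome 7 (28457486 to 28466937, minus strand), was at 4.69, 4.70 and 4.80 in WT mice and at 4.75, 4.73 and 4.69 in BIT mice. It varied least among WT mice, with a coefficient of variation of 1.57% in WT and 4.88% in BIT mice, where the counting error alone is 3.16% at its lowest count. Its log2FC was -0.0040 (standard error 0.0857, 95% interval -0.20 to 0.19), with 0.030 when WT replicate 3 was left out, and 0.047 in replicates 1 and 2 alone. *Nfkbib* shares 42 exon bases with *Sirt2* on the opposite strand, which had 147% of its counts. *Nfkbie*, on chromosome 17 (45866585 to 45874661, plus strand), lies 11446156 bases from the edited *Psmb8*. It was at 5.04, 5.13 and 5.36 in WT mice and at 5.25, 5.24 and 5.19 in BIT mice, with a log2FC of 0.06 (95% interval -0.17 to 0.29), and was -0.01 without WT replicate 1, 0.04 without WT replicate 2, 0.15 when WT replicate 3 was left out, and 0.16 in replicates 1 and 2 alone.

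**Figure D3:**
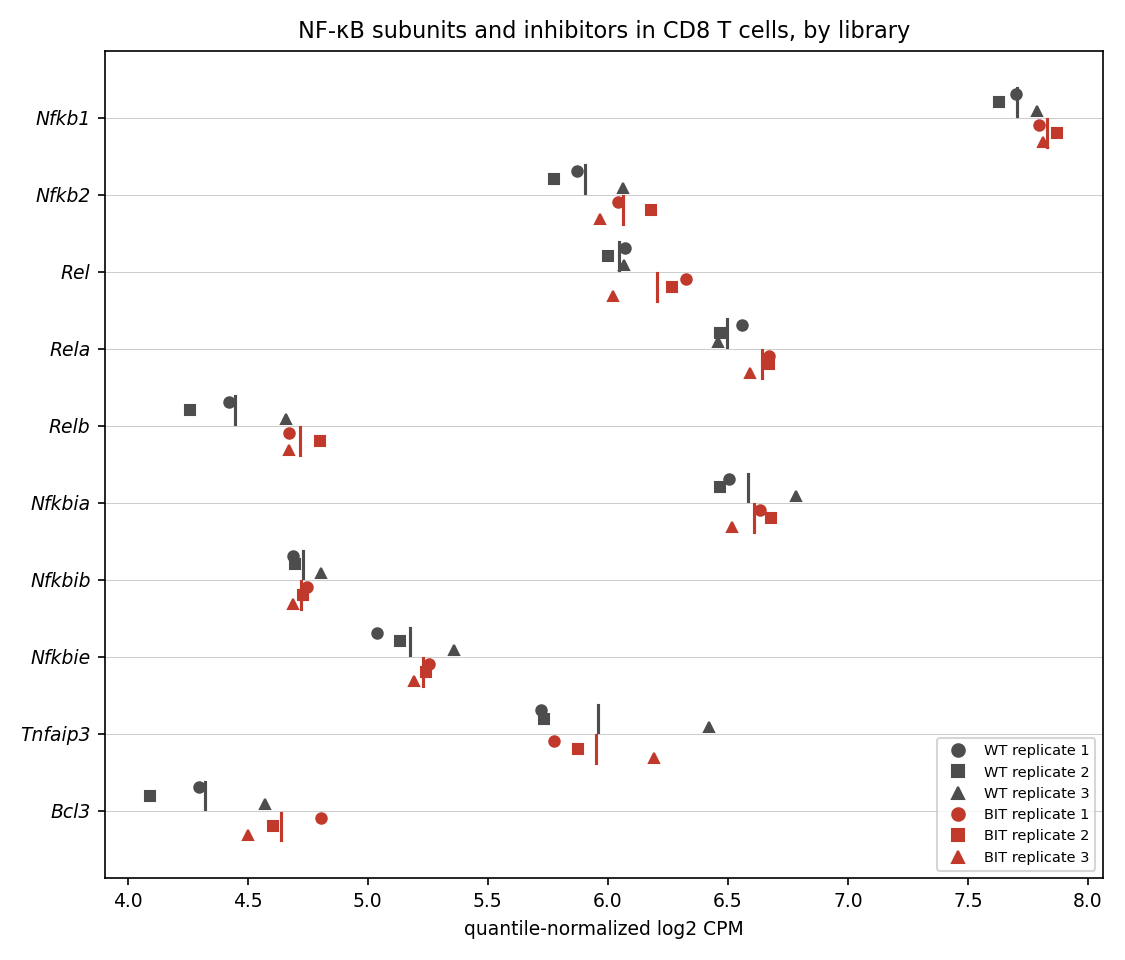
Quantile-normalized log2 CPM (horizontal axis) of each gene in the 3 WT libraries (grey) and 3 BIT libraries (red), with the shape giving the replicate number and the vertical tick the group mean. *Nfkb1*, *Rela* and *Relb* show no overlap of the groups, and *Tnfaip3* shows the widest spread, with replicate 3 (triangles) to the right in both genotypes.

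*Tnfaip3*, on chromosome 10 (18874201 to 18891405, minus strand), encodes A20. It had counts of 2789, 2477 and 3494 (WT) and of 2417, 2519 and 2900 (BIT), or 5.72, 5.73 and 6.42 against 5.78, 5.88 and 6.19 after normalization. It varied most of the 10 among WT mice, with a coefficient of variation of 27.1% in WT and 12.8% in BIT mice against 2.03% from counting at its lowest count. Replicate 3 was above the mean of replicates 1 and 2 by 0.69 on the log2 scale in WT mice and by 0.37 in BIT mice. The log2FC between genotypes was -0.0060 (standard error 0.190, adjusted p = 0.995), with a 95% interval from -0.44 to 0.43. Without WT replicate 3 it was 0.22 (adjusted p = 0.524) and in replicates 1 and 2 alone 0.10.

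The genes of immediate early response, which T cells induce within minutes of stimulation or handling, were examined as well because NF-κB feedback genes are induced by similar stimuli. Of 20 genes 19 were tested, 5 with a log2FC above 0 (against 52.3% of all genes) and 14 below. The median was -0.22, and -0.38 without BIT replicate 3. None had an adjusted p below 0.05 by limma-voom with all 6 libraries. At an unadjusted p below 0.05, 6 were lower in BIT mice (background 4.32% of all genes) and 0 were higher (background 4.25%). *Dusp1*, a phosphatase of MAP kinases, had counts of 1725, 1544 and 3311 (WT) and of 229, 108 and 2079 (BIT) (log2FC -2.29, standard error 0.805, adjusted p = 0.535). *Junb*, an AP-1 subunit, had a log2FC of -0.58 (adjusted p = 0.537), and *Zfp36*, whose product destabilizes mRNAs of cytokines, of -0.43 (adjusted p = 0.531). For *Dusp1* and *Junb* BIT replicates 1 and 2 were below all WT mice and BIT replicate 3 was within the WT range. For *Zfp36* all 3 BIT mice were below the WT mice (background 5.96% of all genes).

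In replicates 1 and 2 alone, 5 of these genes passed an adjusted p of 0.05 by limma-voom, as did 71 of all 16185 genes tested in that setting. The 5 are named after their values were seen. The setting leaves out BIT replicate 3, in which *Fos* had 1972 counts, against 309 and 208 in BIT replicates 1 and 2. *Fosb* had a log2FC of -3.16 (adjusted p = 0.00366), *Dusp1* of -3.09 (adjusted p = 0.00506), *Fos* of -2.07 (adjusted p = 0.00506), *Jun* of -2.66 (adjusted p = 0.0112) and *Junb* of -0.66 (adjusted p = 0.0473). The fall was not shared by the whole list: 4 of the 19 genes tested were above 0, *Ier5* (0.24), *Fosl2* (0.09), *Egr2* (0.08) and *Egr1* (0.04), and *Egr3* was at -0.08. In the same 4 libraries *Nfkbia* had a log2FC of 0.17 (adjusted p = 0.409) and *Tnfaip3* of 0.10. The summed level of the 20 genes was 1508, 1539 and 2146 CPM in WT mice and 1191, 1065 and 1974 CPM in BIT mice, and its part in the values of the NF-κB genes was not tested.

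**Figure D4:**
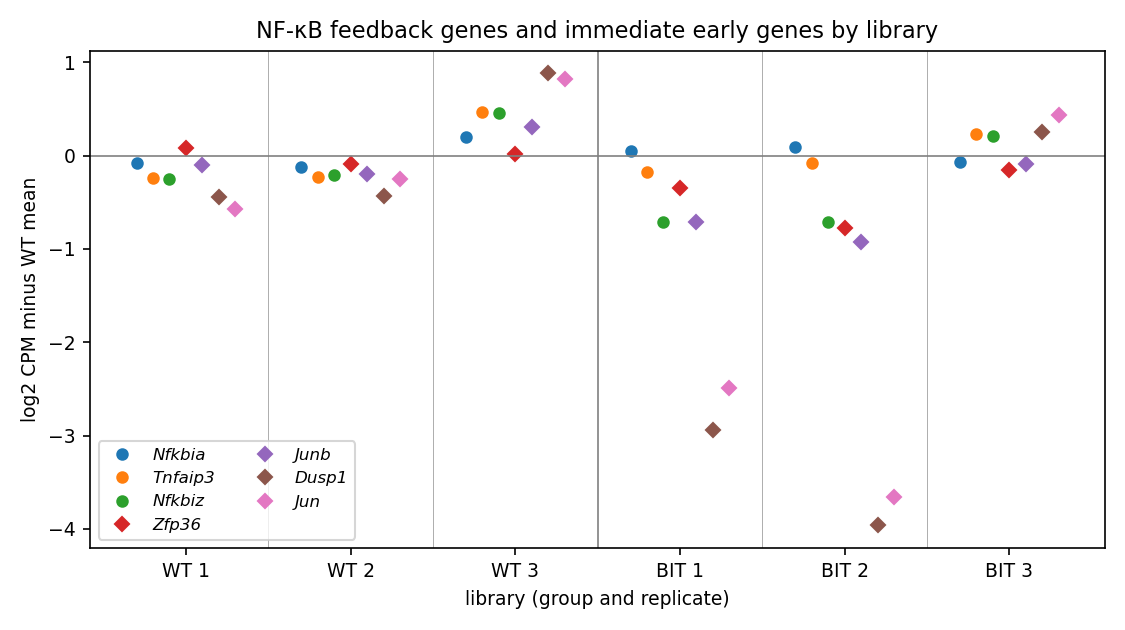
Log2 CPM minus the WT mean (vertical axis) by library for 3 NF-κB feedback genes (circles) and 4 immediate early genes (diamonds). *Dusp1* and *Jun* lie far below the WT mice in BIT replicates 1 and 2 and not in BIT replicate 3, whereas *Nfkbia* in the BIT libraries stays inside the WT range and *Tnfaip3* is highest in replicate 3 of either genotype.

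In the lists of immediate early genes, upstream genes, further regulators, TNF family genes and targets, edgeR and DESeq2 also called 0 genes at an adjusted p of 0.05 with all 6 libraries. Upstream of NF-κB, 24 genes of the receptor-proximal complexes and IκB kinases were all tested. None passed an adjusted p of 0.05, 16 were above 0 (52.3% of all genes were) and the median log2FC was 0.05. The median moved to 0.02 without BIT replicate 3, to 0.03 without WT replicate 1 and to 0.10 with TMM normalization, edgeR or DESeq2, where 18 were above 0. At an unadjusted p below 0.05 there was 1 gene, *Birc3*, lower in BIT mice (background 4.32% of all genes). *Birc3*, a ubiquitin ligase of the TNF receptor complex and itself an NF-κB target, was at 5.59, 5.61 and 5.63 in WT mice and at 5.42, 5.28 and 5.42 in BIT mice (log2FC -0.23, adjusted p = 0.532). *Malt1*, a protease of the complex that links the T cell receptor to NF-κB, had a log2FC of 0.26 (adjusted p = 0.585), and *Sharpin*, a part of the linear ubiquitin ligase, of -0.19 (adjusted p = 0.611).

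Of 17 further regulators, such as IκB-like proteins and deubiquitinases, all were tested and 11 were above 0 (52.3% of all genes were). The median was 0.04, or 0.02 without WT replicate 1. None passed an adjusted p of 0.05 or an unadjusted p of 0.05. *Nfkbiz*, a nuclear IκB protein, was at 4.78, 4.81 and 5.48 in WT mice and at 4.31, 4.31 and 5.24 in BIT mice (log2FC -0.41, adjusted p = 0.702), again with replicate 3 highest in both genotypes. *Tnip2*, a partner of A20, had a log2FC of 0.32 (adjusted p = 0.649) and *Nfkbid*, a further nuclear IκB protein, of -0.19 (adjusted p = 0.713).

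The TNF family, with receptors that activate NF-κB and their ligands, had 14 of 17 genes tested. Of these 6 were above 0, against 52.3% of all genes, and 8 below, with a median of -0.06. The median turned to 0.0071 without BIT replicate 3, with 7 above 0, and to 0.01 with genes of at least 1 CPM on average, and it was -0.0020 in replicates 1 and 2 alone and -0.03 with TMM normalization. None passed an adjusted p of 0.05 by limma-voom. At an unadjusted p below 0.05, 3 were higher (background 4.25% of all genes) and 1 was lower (background 4.32%). *Tnfsf14*, which encodes the ligand LIGHT, had counts of 372, 293 and 299 (WT) and of 401, 395 and 385 (BIT). All BIT mice were above all WT mice after normalization (background 7.38%), with a log2FC of 0.53 (standard error 0.135, unadjusted p = 0.00372, adjusted p = 0.385). *Tnfrsf1b*, the second TNF receptor, had a log2FC of 0.33 (unadjusted p = 0.0176, adjusted p = 0.531). *Tnf*, on chromosome 17 at 998 kb from *Psmb8*, had counts of 401, 321 and 250 (WT) and of 200, 103 and 190 (BIT). All BIT mice were below all WT mice after normalization (background 5.96%), with a log2FC of -0.75 (standard error 0.256, unadjusted p = 0.0169, adjusted p = 0.531).

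Of 30 genes known as NF-κB targets in lymphocytes, 28 were tested. Of these 9 were above 0, against 52.3% of all genes, and 19 below, with a median of -0.16. None passed an adjusted p of 0.05 by limma-voom. At an unadjusted p below 0.05, 1 was higher (background 4.25% of all genes) and 6 were lower (background 4.32%). *Ccnd2*, encoding cyclin D2, was at 9.54, 9.34 and 9.39 in WT mice and at 9.79, 9.86 and 9.69 in BIT mice. The groups did not overlap (background 7.38% with BIT above WT), with a log2FC of 0.36 (standard error 0.0873, unadjusted p = 0.00278, adjusted p = 0.358). *Irf4*, encoding a transcription factor induced by the T cell receptor, had counts of 487, 464 and 382 (WT) and of 323, 250 and 222 (BIT). There was no overlap after normalization (background 5.96% with BIT below WT), with a log2FC of -0.53 (unadjusted p = 0.0109, adjusted p = 0.508). The list shares *Tnf*, *Lta*, *Ltb*, *Birc3*, *Traf1*, *Tnip1* and *Nfkbiz* with the lists above, and the median was -0.05 in replicates 1 and 2 alone, -0.07 without WT replicate 3, -0.07 without BIT replicate 2 and -0.23 without WT replicate 1.

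**Figure D5:**
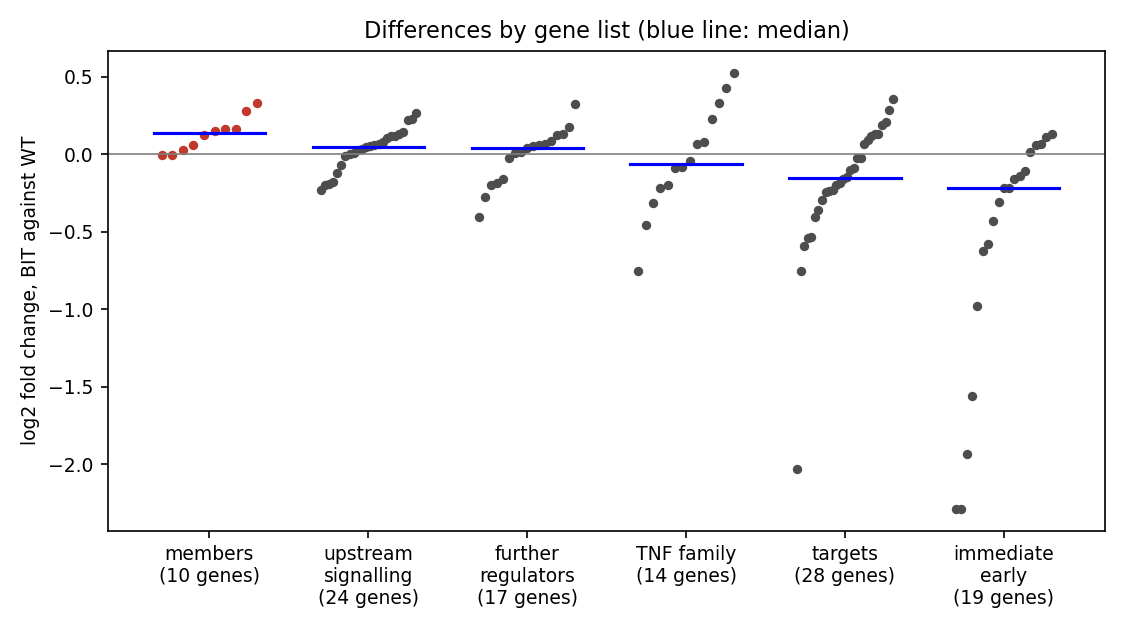
Log2FC of BIT against WT mice (vertical axis) of each tested gene in 6 lists, sorted within a list, with the median as a blue line. The 10 members span -0.01 to 0.33, and the immediate early genes reach -2.29.

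The cells carried the markers of CD8 T cells, with a summed level of 9 marker genes between 4465 and 5394 CPM in WT mice and between 4561 and 5362 CPM in BIT mice. None of the 9 passed an adjusted p of 0.05 by limma-voom, and 4 were above 0. At an unadjusted p below 0.05, 2 were lower (background 4.32% of all genes). These were *Trbc1* (log2FC -0.45, adjusted p = 0.503) and *Cd3g* (-0.34, adjusted p = 0.531), with every BIT mouse below every WT mouse (background 5.96%). The 5 CD4 T cell markers summed to between 6.54 and 9.31 CPM in WT and between 4.39 and 5.42 CPM in BIT mice. The 10 myeloid markers summed to between 42.3 and 60.2 CPM in WT and between 41.8 and 44.8 CPM in BIT mice. This sum was mostly *Cst3*, with between 1192 and 2002 counts, every other myeloid marker having 309 or fewer. The 10 B cell markers summed to between 329 and 396 CPM in WT and between 344 and 370 CPM in BIT mice. This sum was mostly *Ighm*, with between 12163 and 16295 counts, every other B cell marker having 729 or fewer. Of the 9 markers of stroma and endothelium 2 had 0 counts in all libraries, and the list summed to between 105 and 114 CPM in WT and between 98.3 and 103 CPM in BIT mice. No CD4 T cell, B cell, myeloid or stromal marker passed an adjusted p of 0.05 by limma-voom. Of these markers 1 (*Ctla4*, lower in BIT mice) had an unadjusted p below 0.05 (background 4.32% of all genes). With DESeq2, 1 CD4 T cell marker passed 0.05. The CD4 T cell and stromal sums were lower in each BIT mouse than in each WT mouse. *Ctla4* had counts of 115, 129 and 170 (WT) and of 42, 23 and 49 (BIT), whereas *Cd4* itself overlapped, with 38, 25 and 17 (WT) and 8, 28 and 12 (BIT). *Foxp3* had counts of 64, 53 and 30 (WT) and of 26, 27 and 18 (BIT), and the groups overlapped after normalization (log2FC -0.62, adjusted p = 0.723 by limma-voom). Of the 5 CD4 T cell markers 2 had a log2FC above 0. The stromal sum was mostly *Pecam1*, which T cells also express. *Pecam1* had between 4080 and 5736 counts, and every other stromal marker had 18 or fewer. Of the other lists, 9 of the 10 B cell markers and 6 of the 8 myeloid markers tested had log2FC values below 0. Over all genes 52.3% were above 0. The part of such cells in the NF-κB values was not tested.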

How the data were processed

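RNA was measured in 6 libraries, 3 of WT and 3 of BIT mice, with groups taken from the sample titles. The deposited table holds unnormalized estimated counts, made by the authors with RSEM (1.3.1) on Gencode M38 from reads trimmed by Cutadapt (1.18) and aligned by STAR (2.7.0f) to GRCm39, with versions as in the submitters' processing notes. RSEM divides reads that match several genes. Whole numbers made up 84.8% of the values above 0. Gencode M39, also on GRCm39, gave the positions and held 78263 of the 78275 identifiers.

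Counts were rounded, filtered with filterByExpr of edgeR 4.0.16 and compared over all 16105 genes kept by limma 3.58.1 in R 4.3.3 (quantile-normalized voom, then lmFit and eBayes), with Benjamini-Hochberg adjustment. These steps were tested on simulated data with 2-fold changes only. Smaller changes, such as those of the members, were not simulated. Quantile normalization can mask a common shift of many genes. With 3 mice against 3, a two-sided exact permutation test of 1 gene reaches 0.1 at the lowest and is not printed. Each mouse is a separate animal. Libraries held at least 37467678 counts and every member had at least 822 counts in each, and errors from counting alone cover counting error only.

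Alternatives were each mouse left out, replicates 1 and 2 alone, replicate 3 as a batch, a replicate block, sample weights, other filters (none, or a mean CPM of 1 or more), TMM, DESeq2 1.42.0 and the quasi-likelihood test of edgeR. The genes named are the 10 members and, from each pathway list, the genes with an adjusted p below 0.05 or otherwise the 3 with the lowest unadjusted p. The members and lists were chosen with earlier results of these data known. Sequences were read from GRCm39 with pysam 0.24.0.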

Additional observations from a re-analysis of the deposited data

How the results depend on the processing

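No member passed an adjusted p of 0.05 under any of the 15 alternatives, and *Nfkb1*, *Nfkb2*, *Rel*, *Rela*, *Relb* and *Bcl3* kept a log2 fold change above 0 in all of them. The median log2 fold change of the members, 0.14 as reported, ran from 0.091 (without WT replicate 2) to 0.204 (DESeq2). The number of members with an unadjusted p below 0.05, 2 as reported, was 1 without a filter on low counts, 4 with sample quality weights, 4 in replicates 1 and 2 alone, and from 0 to 3 with each mouse left out. The share of all genes at that unadjusted p is not given for these settings, so these counts have no background. Over all genes, 4 were changed and 22 had an adjusted p below 0.05. With edgeR 14 genes had an adjusted p below 0.05, and with DESeq2 29 were changed and 125 passed 0.05. With sample quality weights 7 were changed, with replicate 3 as a batch 9 were changed and 42 passed 0.05, and in replicates 1 and 2 alone 16 were changed and 71 passed 0.05. With each mouse left out, from 1 (without WT replicate 1 or WT replicate 2) to 4 were changed and from 1 (without WT replicate 1) to 37 (without WT replicate 3) passed 0.05. The cause of these moves was not tested.

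The values near 0 changed sign. *Nfkbib* was at 0.0049 with TMM normalization, 0.0051 with edgeR, 0.0097 with DESeq2, 0.022 with sample quality weights and 0.047 in replicates 1 and 2 alone, and ran from -0.024 to 0.030 with each mouse left out. *Tnfaip3* was at 0.046 with TMM normalization, 0.020 with edgeR, 0.025 with DESeq2, 0.0034 without a filter, 0.035 with sample quality weights and 0.10 in replicates 1 and 2 alone, and ran from -0.12 to 0.22 with each mouse left out. With each mouse left out *Nfkbia* ran from -0.032 to 0.13 and *Nfkbie* from -0.012 to 0.15.

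The IκB to subunit ratio was 0.885 in WT and 0.801 in BIT mice with the length of the longest transcript, against 1.09 and 0.984 as reported, and ran from 1.04 to 1.13 in WT and from 0.980 to 0.987 in BIT mice with each mouse left out.

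With the replicate number as a block, 2 genes over all genes were changed, and no call on a member changed. The correlation of same-numbered libraries, as deviations from their group means across genes, was 0.139, 0.0255 and 0.332 for replicates 1, 2 and 3. The value of replicate 3 was the highest of all pairs. BIT replicate 2 correlated better with WT replicate 1 (0.113), and BIT replicate 1 with WT replicate 2 (0.244). These values do not settle whether the numbers pair the mice.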
